A study of Mus musculus with 9 samples.

Results

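Saa3, Lcn2, Hp, C3, C4b, C1ra, C1s1 and Serping1, which encode secreted proteins of the acute phase and complement systems, were followed by RNA sequencing in mesenchymal stromal cells of mouse bone marrow. The 8 genes were picked by symbol from a deposited table of 21959 genes, and all 8 symbols were found. They were chosen with earlier results of these data known. The 9 libraries fall into 3 groups of 3. Each culture received, for 24 h, peritoneal fluid (PF) from control mice (control PF), fluid from donors on 3 days of TNBS (TNBS PF), or phosphate-buffered saline (PBS). The culture medium named for all groups held 10% serum. TNBS is a hapten that induces colitis in rodents and serves here as the model of inflammatory bowel disease. The labels mark the line SV40, so the cells of every group, PBS included, are described as a single line and not as primary cells. Donor strain, age and number, and whether the fluid was pooled or free of cells, remain not given in the sources used here. No label says whether replicates came from separate cultures or donors. The p-values therefore describe only how far the libraries scatter, and that scatter may be technical.

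The acute phase response is the rise of a set of plasma proteins after injury or infection, driven mainly in hepatocytes by interleukin 6 and interleukin 1 through STAT3, C/EBP and NF-kB factors. Stromal cells, adipocytes and epithelia make some of the same proteins locally, and in the mouse Saa3 is the serum amyloid A gene expressed chiefly outside the liver. Complement is a cascade of plasma proteases and their substrates. In the classical pathway C1q bound to antibody activates the proteases C1r and C1s. C1s then cleaves C4 and C2, and the resulting convertase cleaves C3. The C1 inhibitor, encoded by Serping1, blocks C1r and C1s.

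The libraries held 17863100 to 25591800 assigned fragments, as recovered from the deposited FPKM (fragments scaled to exon length and to library size). The 3 TNBS PF libraries were the deepest, at 22918900 or more, and the other 6 held at most 21520700. Depth therefore moved with the TNBS PF group, and its part in the results was not tested. Of 13 stromal markers 12 had a mean of at least 1 FPKM, among them Col1a1, Thy1, Ly6a and Cd44, and Lepr did not. Their sum was 1519 to 1544 FPKM in TNBS PF, under the 1596 to 1615 of control PF and the 1617 to 1684 of PBS. Against control PF, Pdgfrb (log2 −0.39), Pdgfra (−0.38), Ly6a (−0.32) and Col1a2 (−0.19) were called lower, with limma adjusted p = 0.000104, 0.000235, 0.000219 and 0.00487. Cd44 (0.21) and Vcam1 (0.12) were called higher, with limma adjusted p = 0.000456 and 0.0305, the latter lost without any control PF library, TNBS PF 1 or TNBS PF 3 (0.0569 to 0.128). Neutrophils store lipocalin 2, and hepatocytes make most plasma acute phase proteins, so markers of both were examined. The 12 neutrophil markers summed to 0.0757 to 0.558 FPKM per library, and 6 of them (S100a9, Elane, Ngp, Retnlg, Csf3r and Mmp8) were listed at 0 throughout. The 10 hepatocyte markers summed to 0.113 to 0.525 FPKM. Of 14 macrophage and monocyte markers 12 had a mean under 1 FPKM, and Cd14 carried most of their sum of 14.5 to 18.2 FPKM. Cd14 was called higher in TNBS PF (14.8 FPKM) than in PBS (12.9 FPKM). It lost that call without any 1 of TNBS PF 1, TNBS PF 2 or PBS 1 (limma adjusted p = 0.0546 to 0.121). The summed level of the 11 mesothelial markers was 52.6 to 57.9 FPKM with TNBS PF, 46.2 to 47.6 with control PF and 47.8 to 48.6 with PBS, so it was highest in TNBS PF. Of the 4 tested, Msln, Krt18 and Krt19 were called higher there than in control PF. Slpi, also tested, went the other way and was not called, with 4.44 to 5.55 FPKM in TNBS PF and 5.79 to 6.45 in control PF. It was called lower with only the 2 groups compared (limma adjusted p = 0.0419) and without PBS 2 (0.0441). Msln alone kept its call as higher than in control PF whichever library was left out. Krt18 (limma adjusted p = 0.0497) lost it without any library but control PF 3 (0.0527 to 0.148), and Krt19 (0.0154) without any 1 of control PF 2, control PF 3, TNBS PF 1 or TNBS PF 2 (0.0566 to 0.0703). Msln, at most 44.9 FPKM, carried most of the mesothelial sum. Msln, Krt18 and Krt19 were also called higher in TNBS PF than in PBS. Each lost that call without some single libraries, with limma adjusted p up to 0.181, 0.0718 and 0.104. The part of the stromal, macrophage and mesothelial markers in the results was not tested. In bulk RNA, fewer cells expressing a gene and less of its RNA per cell cannot be told apart.

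The 8 genes spanned more than 3 orders of magnitude in level. C3, the central component of complement, had the highest FPKM, 142 on average over the 9 libraries, and ranked between 190 and 308 of the 21959 genes in single libraries. Saa3 followed with 98.9 FPKM and ranks of 299 to 630. Next came the protease genes C1ra (39.3 FPKM) and C1s1 (33.4 FPKM) and the siderophore-binding lipocalin gene Lcn2 (29.3 FPKM). Serping1 was at 4.65 FPKM, the haemoglobin-binding haptoglobin gene Hp at 0.935 FPKM and C4b at 0.0975 FPKM. Ranges over the 9 libraries overlapped between C1ra and C1s1 and between C1s1 and Lcn2, and no other neighbours in this order overlapped. C1ra was above C1s1 in 9 of 9 libraries, while C1s1 was above Lcn2 in 6 of 9. The components of the classical pathway were thus detected unevenly. Substrate gene C3 was represented by 13794 to 16324 fragments per library and C4b by 4 to 20.

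**Figure D1:**
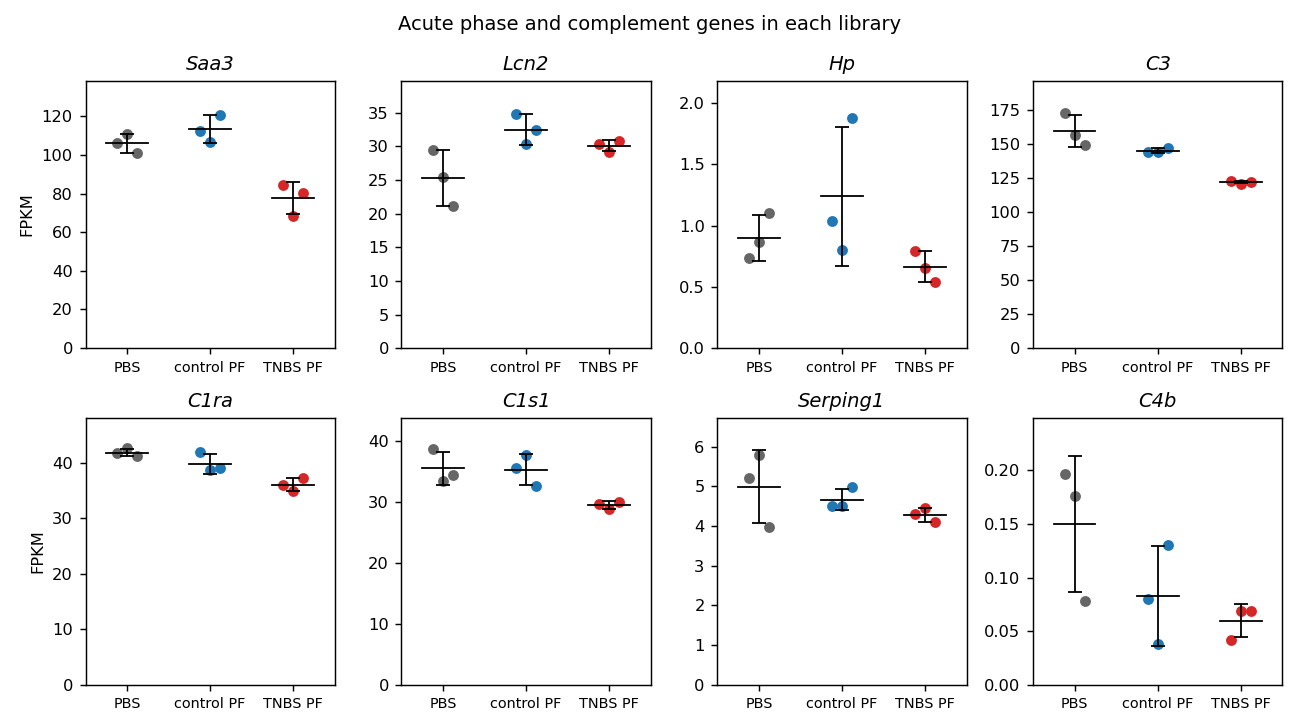
FPKM (vertical axes, from 0) of the 8 genes in each library, by group on the horizontal axes; points are libraries, long bars the mean and error bars the SD of 3 libraries. In Saa3, C3, C1ra and C1s1 the 3 TNBS PF points lie under all others, whereas in Lcn2 the lowest points are in PBS and in C4b all values are under 0.2 FPKM.

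Near copies contributed little. Saa1, Saa2 and Saa4, which lie beside Saa3 on chromosome 7 (mm10), had 8, 5 and 13 fragments over all 9 libraries, against 48092 for Saa3. On chromosome 6 the C1ra and C1s1 genes lie in a cluster with C1rl, C1rb and C1s2. C1rb had 46 fragments against 22040 for C1ra, and C1s2 had 157 against 19612 for C1s1, while C1rl reached 2765. How the authors assigned reads shared by such copies is not stated, so a small exchange between them remains uncertain. Of the 3129 exon bases of C1s1, 576 overlap an antisense transcript, and without the strand of the libraries the 2 cannot be told apart over those bases. C4a, the near copy of C4b, was not found under that symbol in the deposited table and could not be analysed.

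Promoter sequence is shown for Saa3, C3, C1ra and C1s1, on which the results turn, and for Lcn2 as the acute phase gene whose values were ordered otherwise. The windows are from RefSeq (GRCm38.p6), 250 bases before to 50 bases after the annotated start, 5′ to 3′ on the gene's strand, and the table held a window for 5 of the 8 genes. Capitals mark matches, on either strand, to 3 patterns of the acute phase factors: TTNNGNAA for C/EBP, a run of 3 G, any 5 bases and 2 C for NF-kB and TTCNNNGAA for STAT.
Saa3, chr7:46715627-46715926, minus strand: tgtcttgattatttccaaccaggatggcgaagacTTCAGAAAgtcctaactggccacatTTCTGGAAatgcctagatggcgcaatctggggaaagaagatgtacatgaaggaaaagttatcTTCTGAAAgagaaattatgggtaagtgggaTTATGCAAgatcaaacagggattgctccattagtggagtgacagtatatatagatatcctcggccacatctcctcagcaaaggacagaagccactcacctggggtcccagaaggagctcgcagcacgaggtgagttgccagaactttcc
C3, chr17:57228087-57228386, minus strand: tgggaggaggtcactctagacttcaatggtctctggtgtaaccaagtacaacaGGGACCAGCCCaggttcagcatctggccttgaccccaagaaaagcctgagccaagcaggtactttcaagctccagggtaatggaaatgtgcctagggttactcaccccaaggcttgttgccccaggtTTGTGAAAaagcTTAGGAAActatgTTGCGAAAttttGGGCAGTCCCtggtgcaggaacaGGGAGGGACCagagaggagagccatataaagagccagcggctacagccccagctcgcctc
C1ra, chr6:124512371-124512670, plus strand: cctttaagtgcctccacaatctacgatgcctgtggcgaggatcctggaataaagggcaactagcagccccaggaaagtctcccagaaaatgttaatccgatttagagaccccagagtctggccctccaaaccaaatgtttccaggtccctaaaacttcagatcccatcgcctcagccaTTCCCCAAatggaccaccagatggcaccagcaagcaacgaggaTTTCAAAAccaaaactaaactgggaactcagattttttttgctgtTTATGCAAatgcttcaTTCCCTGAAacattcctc
C1s1, chr6:124542310-124542609, minus strand: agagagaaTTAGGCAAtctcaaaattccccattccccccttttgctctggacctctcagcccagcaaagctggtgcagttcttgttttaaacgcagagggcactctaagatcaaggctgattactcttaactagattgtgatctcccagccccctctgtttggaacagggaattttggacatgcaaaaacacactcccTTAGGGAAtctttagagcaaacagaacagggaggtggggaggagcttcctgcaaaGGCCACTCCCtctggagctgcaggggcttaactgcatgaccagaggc
Lcn2, chr2:32387690-32387989, minus strand: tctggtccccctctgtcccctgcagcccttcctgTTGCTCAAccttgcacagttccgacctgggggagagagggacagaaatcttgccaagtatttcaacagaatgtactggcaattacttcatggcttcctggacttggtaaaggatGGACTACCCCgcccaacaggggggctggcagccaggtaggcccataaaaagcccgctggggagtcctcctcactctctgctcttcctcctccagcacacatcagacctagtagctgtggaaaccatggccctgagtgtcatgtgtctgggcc

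The C/EBP pattern matched 4 times in the Saa3 window, including TTATGCAA from base 152, and 4 times in that of C3, where TTGCGAAA from base 206 fits on both strands. It matched 3 times in C1ra, 2 times in C1s1 and 1 time in Lcn2. Such a match occurs in 40.7% of all 32851 promoter windows of this length. The NF-kB pattern, present in 50.8% of all windows, matched 5 times in C3, where some matches overlap each other or lie on both strands, and 1 time each in C1s1 and Lcn2. GGGCAGTCCC of C3, from base 218, reads the same pattern on both strands. The STAT pattern, present in 8.3% of windows, matched 1 time, in C1ra. The patterns are short and common, and a match describes letters only. A second annotated start of C1s1 has a window that overlaps the one shown.

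Saa3 (ENSMUSG00000040026, mm10 chromosome 7, 46711998 to 46715700, minus strand) was examined first in the comparison that asks how cells respond to the TNBS treatment of the fluid donors. Its level was 84.3, 68.3 and 80.2 FPKM in TNBS PF 1 to 3, 112, 106 and 121 FPKM in control PF 1 to 3, and 106, 111 and 101 FPKM in PBS 1 to 3. Every TNBS PF library was under every library of the other groups, and control PF and PBS overlapped. Serum amyloid A3 is a small apolipoprotein that is induced by interleukin 1 and lipopolysaccharide in mouse fibroblasts and macrophages. The mean of TNBS PF was 0.685 times that of control PF and 0.732 times that of PBS. In limma across all genes, on log2(FPKM + 1), Saa3 fell by 0.54 against control PF (SE 0.0667, n = 3 libraries a group) with limma adjusted p = 0.000269. Against PBS it fell by 0.45 (limma adjusted p = 0.000655). Control PF and PBS differed by 0.09 (95% interval −0.05 to 0.24, limma adjusted p = 0.548). Both falls passed under all 19 alternatives tried, with adjusted p no higher than 0.00703 and 0.0106. It rests on 5518, 4554 and 4788 fragments in TNBS PF 1 to 3.

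Lcn2 (ENSMUSG00000026822, chromosome 2, 32384633 to 32388252, minus strand) encodes lipocalin 2, which withholds iron from bacteria by binding their siderophores. It had 30.3, 29.2 and 30.8 FPKM with TNBS PF, 34.8, 30.3 and 32.5 FPKM with control PF and 29.4, 25.4 and 21.1 FPKM with PBS. The 2 fluid groups overlapped, and the control PF values lay above all PBS values. TNBS PF and control PF differed by −0.11 on the log2 scale (95% interval −0.29 to 0.08, limma adjusted p = 0.495). Control PF was 0.36 above PBS (SE 0.0861) with limma adjusted p = 0.0502, just outside the threshold of 0.05. TNBS PF was 0.25 above PBS (limma adjusted p = 0.0606). Both passed when PBS 1 was left out (limma adjusted p = 0.00691 and 0.00571), with a filter at 5 FPKM (0.0375 and 0.0481) and in limma voom on recovered fragments (0.00128 and 0.0054). Over all alternatives the adjusted p ran from 0.00128 to 0.179 and from 0.0054 to 0.187. The ratio of Saa3 to Lcn2 in FPKM was 2.34 to 2.78 with TNBS PF, 3.23 to 3.72 with control PF and 3.61 to 4.78 with PBS. The TNBS PF libraries had the lowest ratios.

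Hp (ENSMUSG00000031722, chromosome 8, 109575128 to 109579172, minus strand), a hepatic acute phase gene, was at the edge of detection. Its 3 TNBS PF libraries had 32, 27 and 20 fragments (0.794, 0.657 and 0.543 FPKM), those of control PF 33, 24 and 65 (1.04, 0.803 and 1.88 FPKM) and those of PBS 21, 25 and 36 (0.732 FPKM in PBS 1 and 0.866 in PBS 2). TNBS PF lay under control PF in every library, by a margin of 0.794 against 0.803 FPKM at the closest, and overlapped PBS. Hp reached the filter of 1 FPKM in 3 libraries only, control PF 1, control PF 3 and PBS 3. The log2 difference of TNBS PF from control PF was −0.40 (95% interval −0.71 to −0.10, limma adjusted p = 0.0896). It passed without control PF 2 (adjusted p = 0.0333) and in limma voom on recovered fragments, where it was −0.83 (adjusted p = 0.0491), in a range of 0.0333 to 0.289 over alternatives. The 1 added to FPKM understates the difference of such a low gene.

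C3 (ENSMUSG00000024164, chromosome 17, 57203970 to 57228136, minus strand), whose cleavage is the step on which all complement pathways meet, was the most abundant member. TNBS PF 1 to 3 had 123, 121 and 123 FPKM, control PF 144, 144 and 147 FPKM, and PBS 173, 157 and 149.7 FPKM. No groups overlapped, with PBS highest, control PF between and TNBS PF lowest. The mean of TNBS PF was 0.842 times that of control PF and 0.765 times that of PBS. C3 fell by 0.25 against control PF (SE 0.0422, limma adjusted p = 0.00253) and by 0.38 against PBS (limma adjusted p = 7.35e-05), and both passed under all 19 alternatives. Control PF was 0.13 under PBS with limma adjusted p = 0.13, a difference that passed in limma voom on recovered fragments (adjusted p = 0.0235, in a range of 0.0235 to 0.276). The values of C3 varied little within the fluid groups, with an SD of 0.956 FPKM in TNBS PF and 1.88 FPKM in control PF against 11.97 FPKM in PBS.

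C1ra and C1s1, the genes of the paired proteases of the C1 complex, lie on chromosome 6 at 124512405 to 124523443 on the plus strand and at 124530345 to 124542359 on the minus strand. C1ra had 35.99, 34.9 and 37.3 FPKM with TNBS PF, 41.9, 38.7 and 39.0 FPKM with control PF and 41.7, 42.6 and 41.2 FPKM with PBS. C1s1 had 29.7, 28.8 and 29.9 FPKM with TNBS PF, 35.6, 37.7 and 32.7 FPKM with control PF and 38.6, 33.4 and 34.5 FPKM with PBS. For both genes each TNBS PF library was under all other libraries, while control PF and PBS overlapped. C1s1 fell by 0.25 against control PF (SE 0.0557, limma adjusted p = 0.0121) and by 0.26 against PBS (limma adjusted p = 0.0072). C1ra fell by 0.14 against control PF (SE 0.0376, limma adjusted p = 0.0318) and by 0.21 against PBS (limma adjusted p = 0.00243). The falls against PBS passed under all 19 alternatives, and those against control PF lost the call in 8 of 19 (C1ra) and 3 of 19 (C1s1). For C1ra against control PF the limma adjusted p ran from 0.0164 to 0.126. It was 0.126 when TNBS PF 2 was left out, 0.0895 for TNBS PF 1, 0.109 for control PF 1 and 0.0517 for control PF 3. For C1s1 it ran from 0.000651 to 0.0581, with 0.0505 when TNBS PF 2 was left out and 0.055 for control PF 2. The ratio of C1ra to C1s1 in FPKM was 1.22 ± 0.0211 with TNBS PF, 1.13 ± 0.0932 with control PF and 1.18 ± 0.0985 with PBS (SD, n = 3 each), with PBS overlapping both fluid groups and TNBS PF just above control PF in every library.

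Serping1 (ENSMUSG00000023224, chromosome 2, 84765387 to 84775444, minus strand), the inhibitor of these proteases, had 4.30, 4.45 and 4.09 FPKM with TNBS PF, 4.51, 4.51 and 4.98 FPKM with control PF and 5.20, 5.79 and 3.98 FPKM with PBS. The TNBS PF values were under those of control PF, with 4.45 and 4.51 FPKM as the nearest, and PBS overlapped both. TNBS PF and control PF differed by −0.10 (95% interval −0.30 to 0.10, limma adjusted p = 0.54). TNBS PF and PBS differed by −0.17 (95% interval −0.37 to 0.03, limma adjusted p = 0.227), which passed without PBS 3 (−0.30, limma adjusted p = 0.013, in a range of 0.013 to 0.602).

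C4b (ENSMUSG00000073418, chromosome 17, 34728380 to 34743882, minus strand), the substrate of C1s, did not reach the filter in any library and was not tested with the rest. It had 6, 10 and 9 fragments in TNBS PF, 9, 4 and 16 in control PF and 20, 18 and 9 in PBS. In FPKM, control PF overlapped both other groups, and TNBS PF, at up to 0.069, lay just under PBS, at 0.0778 or more. Summed over 3 libraries this was 47 fragments in PBS, 29 in control PF and 25 in TNBS PF. Per 1000000 assigned fragments it was 0.34 in TNBS PF (exact Poisson 95% interval 0.22 to 0.501), 0.484 in control PF (0.324 to 0.695) and 0.837 in PBS (0.615 to 1.11). The intervals of TNBS PF and PBS did not overlap, and they cover counting error only, not the spread between libraries. Without the filter, limma gave adjusted p = 0.146 for TNBS PF against PBS. In the authors' deposited table C4b was the single member with a call, lower in TNBS PF than in PBS, with a log2 fold change of −1.31 and p = 0.0274, whose adjustment is not stated. The same authors' deposited table gives Saa3 a p of 1.67e-08 and a log2 fold change of −0.53 for TNBS PF against control PF, and no call.

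In TNBS PF against control PF, 4 of the 7 tested members were called lower and 0 higher. Of all 10537 tested genes 10.6% were called there, 5.45% lower and 5.15% higher. The members were chosen with earlier results of these data known, so the shares are set side by side and not tested. Against PBS the same genes, Saa3, C3, C1ra and C1s1, were called lower and 0 higher, where 16.7% of all tested genes were called, 8.88% lower and 7.8% higher. The balance of the 2 directions over all genes turned on the scaling. Against PBS 936 genes were lower and 822 higher, with 1153 and 624 under TPM scaling and 819 and 972 under median-ratio scaling. Against control PF 574 were lower and 543 higher, with 578 and 489 under TPM scaling and 469 and 648 under median-ratio scaling. Under both scalings Saa3, C3 and C1s1 stayed called lower in both comparisons, while C1ra lost its call against control PF under median-ratio scaling (limma adjusted p = 0.0517). Under median-ratio scaling Lcn2 was called higher in TNBS PF than in PBS (limma adjusted p = 0.0496). Both comparisons share the TNBS PF libraries. In control PF against PBS, limma called 0 of the 7, where 2.15% of all genes were called, 1.14% lower and 1.02% higher. There Lcn2 and C3 ranked 229 and 596 of the 10537 tested genes by unadjusted limma p. In limma voom on recovered fragments both were called, Lcn2 higher and C3 lower, among 374 genes called there in all.

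Hp entered the test only through libraries in which it was high, none of them TNBS PF, so overlap and medians are given for the 6 tested members with a mean of at least 1 FPKM. Groups did not overlap for 5 of these 6 in TNBS PF against control PF, all lower, where that held for 31.8% of tested genes, 18.2% lower and 13.6% higher. In TNBS PF against PBS it held for 4 of the 6, all lower, beside 35.3% of tested genes, 19.7% lower and 15.5% higher. In control PF against PBS it held for C3 (lower) and Lcn2 (higher), beside 18.6%, with 9.32% lower and 9.33% higher. The median log2 difference of the 6 was −0.19 against control PF and −0.23 against PBS, beside −0.01 for all tested genes in both. The choice of members with earlier results known limits these counts and medians too. When TNBS PF 2 was left out, 2 members were called against control PF, Saa3 and C3. All genes called in that comparison numbered 1117, and 661 to 733 when any 1 of the TNBS PF libraries, control PF 2 or control PF 3 was left out. For control PF against PBS the count was 227, and 115 to 142 when any control PF library or PBS 3 was left out. For TNBS PF against PBS it was 1758, and 1148 when TNBS PF 3 was left out.

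**Figure D2:**
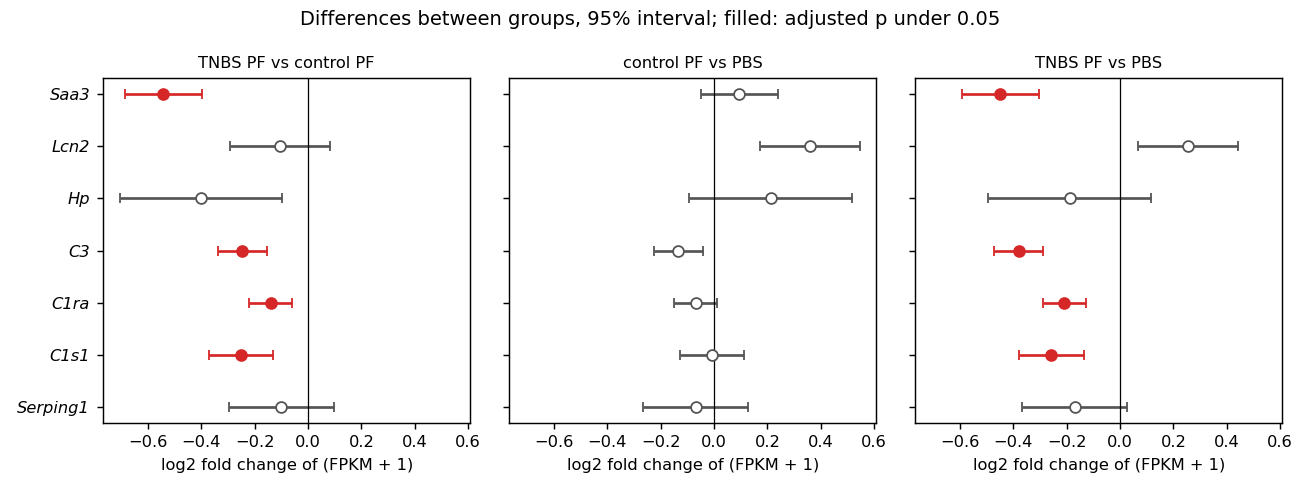
Log2 difference of FPKM + 1 (horizontal axes) with its 95% interval for the 7 tested genes in the 3 comparisons; filled red points passed an adjusted p of 0.05. Saa3, C3, C1ra and C1s1 passed in both comparisons with TNBS PF, at −0.14 to −0.54, and no gene passed between control PF and PBS.

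**Figure D3:**
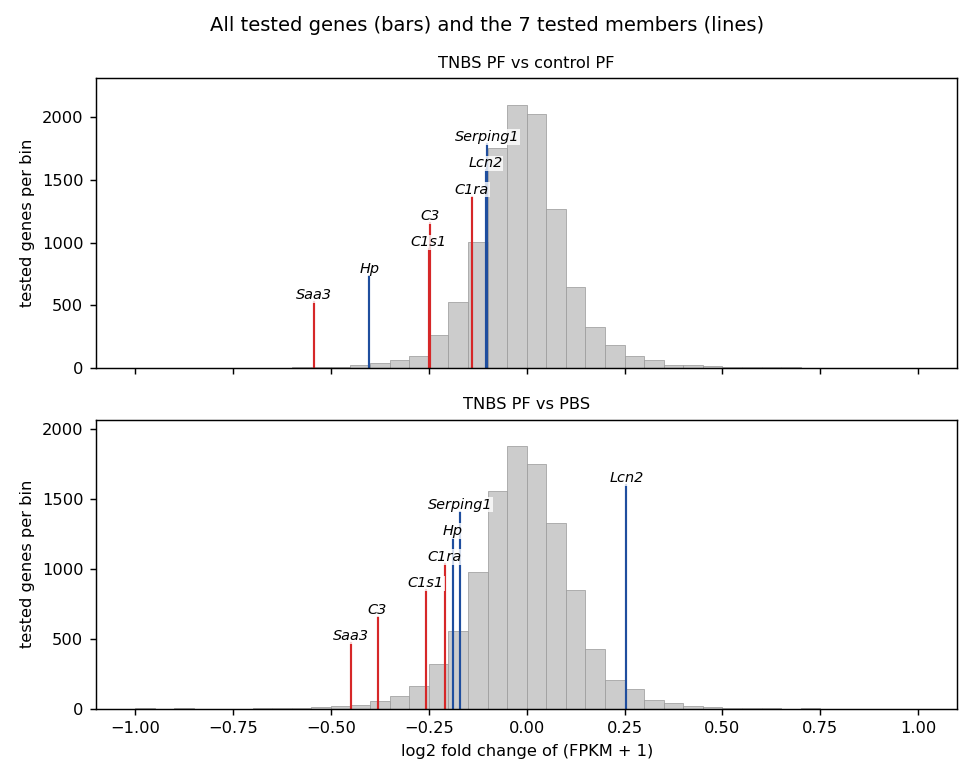
Number of tested genes (vertical axes) by log2 difference of FPKM + 1 in bins of 0.05 (horizontal axis), with lines at the 7 tested members, red where the adjusted p passed 0.05; line height has no meaning and differences beyond 1 are counted in the outermost bins. Saa3 lies at −0.54 and −0.45, rank 7 and rank 52 of 10537 by size of fall in the 2 comparisons, while Lcn2 lies at −0.11 in the upper and 0.25 in the lower panel.

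The other genes of the complement pathways were mostly silent. All of C1qa, C1qb and C1qc, which encode the recognition subunit of C1, had a mean near 0, and 14 of the 19 listed classical and lectin pathway genes had a mean under 1 FPKM. Of the 5 tested, which include the members C1ra and C1s1, 3 were called lower and 1 higher in TNBS PF against control PF. Of the 3 that are no member, 1 was called lower and 1 higher. Beside these counts, 5.45% of all tested genes were called lower in that comparison and 5.15% higher. Colec12, a scavenger receptor collectin, fell from 21.9 to 19.3 FPKM (log2 −0.18, limma adjusted p = 0.00973), with an adjusted p of at most 0.0405 over alternatives. Masp1, the lectin pathway protease gene, rose from 13.8 to 15.5 FPKM (log2 0.15, limma adjusted p = 0.0308), and its adjusted p was 0.0806 to 0.128 without any 1 of control PF 2, control PF 3, TNBS PF 1 or TNBS PF 2. Against PBS it was called higher too (limma adjusted p = 0.0415), with 0.0556 to 0.159 when control PF 2, TNBS PF 1, TNBS PF 2, PBS 2 or PBS 3 was left out. No complement receptor gene was tested, since none of the 9 exceeded 0.669 FPKM in any library. The properdin gene Cfp, of the alternative pathway, had 3.10 FPKM in TNBS PF and 3.07 in control PF.

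In TNBS PF against control PF, 5.45% of all tested genes were called lower and 5.15% higher. Of 30 acute phase genes 9 were tested, and 4 were called lower and 0 higher in that comparison. Besides Saa3 these were Cp, Serpina3i and Serpina3g. Cp, which encodes the copper ferroxidase ceruloplasmin, had 31.3 to 32.7 FPKM with TNBS PF, 39.0 to 42.4 with control PF and 31.1 to 34.7 with PBS. It fell by 0.33 against control PF (limma adjusted p = 0.000385) and its difference from PBS was −0.03 (limma adjusted p = 0.689). Control PF was higher than PBS (0.30, limma adjusted p = 0.0031), so control PF stood above both other groups. The serine protease inhibitor genes Serpina3i (1.23 against 2.27 FPKM) and Serpina3g (0.636 against 1.18 FPKM) fell against control PF (limma adjusted p = 0.00502 and 0.0138), the second with 0.0578 and 0.0655 without control PF 1 and TNBS PF 1. Both also fell against PBS (limma adjusted p = 0.00668 and 0.0038). Serpina3g was at 0.473 to 0.767 FPKM in TNBS PF, under the filter of 1 FPKM in every library of that group. Like Hp, it entered the test only through libraries in which it was high, so its calls are limited by the filter. Lbp, the lipopolysaccharide binding protein gene, was called lower against PBS (1.03 against 1.72 FPKM, limma adjusted p = 0.0171; 0.0737 without TNBS PF 2 and 0.0699 without PBS 1). Ptx3, the long pentraxin gene, was called higher against PBS at limma adjusted p = 0.0482, with overlapping groups and an adjusted p of up to 0.158 over alternatives. Leaving out any library but PBS 2 ended that call.

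Among the cytokines, receptors and factors that drive these genes, 19 of 25 were tested, with 4 called lower and 1 higher in TNBS PF against control PF. Beside these counts, 5.45% of all tested genes were called lower there and 5.15% higher. Stat3, the factor downstream of interleukin 6, fell from 15.5 to 13.5 FPKM (log2 −0.18, limma adjusted p = 0.00625) and from 15.1 FPKM in PBS (log2 −0.16, limma adjusted p = 0.0112). Il1r1, the interleukin 1 receptor gene, fell from 9.63 to 8.22 FPKM against control PF (log2 −0.21, limma adjusted p = 0.00655). The receptor genes Il6st and Osmr were called lower at limma adjusted p = 0.0425 and 0.0401. Their calls were lost without any 1 of control PF 2, control PF 3, TNBS PF 2 or TNBS PF 3, and that of Osmr without TNBS PF 1, with adjusted p up to 0.158 and 0.127. Lif, a cytokine of the interleukin 6 family, rose from 9.05 to 11.3 FPKM (log2 0.29, limma adjusted p = 0.000707). Il6 itself had 7.70 FPKM in TNBS PF and 8.19 in control PF (log2 −0.09, limma adjusted p = 0.61). Of the C/EBP factor genes, Cebpb was at −0.23 (limma adjusted p = 0.179) and Cebpd at −0.09 (limma adjusted p = 0.277) against control PF.

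Against PBS, Il6st and Jak1, the gene of its kinase, were called lower in TNBS PF (log2 −0.19 and −0.13, limma adjusted p = 0.00848 and 0.00716). Lifr was called lower too (limma adjusted p = 0.0144; 0.0608 without TNBS PF 3 and 0.057 without PBS 1). Lif was called higher (limma adjusted p = 0.0337), with adjusted p of 0.0595 to 0.146 without any 1 of TNBS PF 2, TNBS PF 3 or the PBS libraries. In control PF against PBS, where 2.15% of all tested genes were called, 2 of the 19 were called, both higher. They were Socs3, the feedback inhibitor of interleukin 6 signalling (17.9 against 13.8 FPKM, limma adjusted p = 0.0226), and Nfkbiz, a cofactor of NF-kB for Lcn2 (33.9 against 30.4 FPKM, limma adjusted p = 0.031). The call of Socs3 was lost without any control PF library (adjusted p = 0.0571 to 0.0771). That of Nfkbiz was lost without any 1 of control PF 1, control PF 2, PBS 1 or PBS 3 (0.062 to 0.116).

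Of 10 receptors and partners of the acute phase proteins 5 were tested. Tlr2, a receptor reported to respond to serum amyloid A, had 8.43 to 9.73 FPKM with TNBS PF, 10.7 to 11.1 with control PF and 12.5 to 14.1 with PBS. It fell by 0.25 against control PF (limma adjusted p = 0.0102; 0.0505 without TNBS PF 2) and by 0.52 against PBS (limma adjusted p = 5.07e-05). The control PF value was 0.27 under PBS (limma adjusted p = 0.0244), with 0.0619 to 0.0921 without any control PF library or PBS 1. Tlr4 was called lower against control PF (limma adjusted p = 0.0177), with 0.0607 to 0.0684 without any 1 of control PF 1, TNBS PF 2 or TNBS PF 3. Mean Tlr4 was 7.51 FPKM with TNBS PF, 8.80 with control PF and 7.75 with PBS, and the TNBS PF and PBS libraries overlapped. Mmp9, whose protein binds lipocalin 2, was called lower in TNBS PF (log2 −0.55, limma adjusted p = 0.0013) and in control PF (log2 −0.46, limma adjusted p = 0.0178) than in PBS. The second was lost without any 1 of control PF 1, control PF 2 or PBS 3 (adjusted p = 0.0571 to 0.0702). Lrp2, an uptake receptor of lipocalin 2, and Cd163, the receptor of haptoglobin complexes, had means under 1 FPKM.

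**Figure D4:**
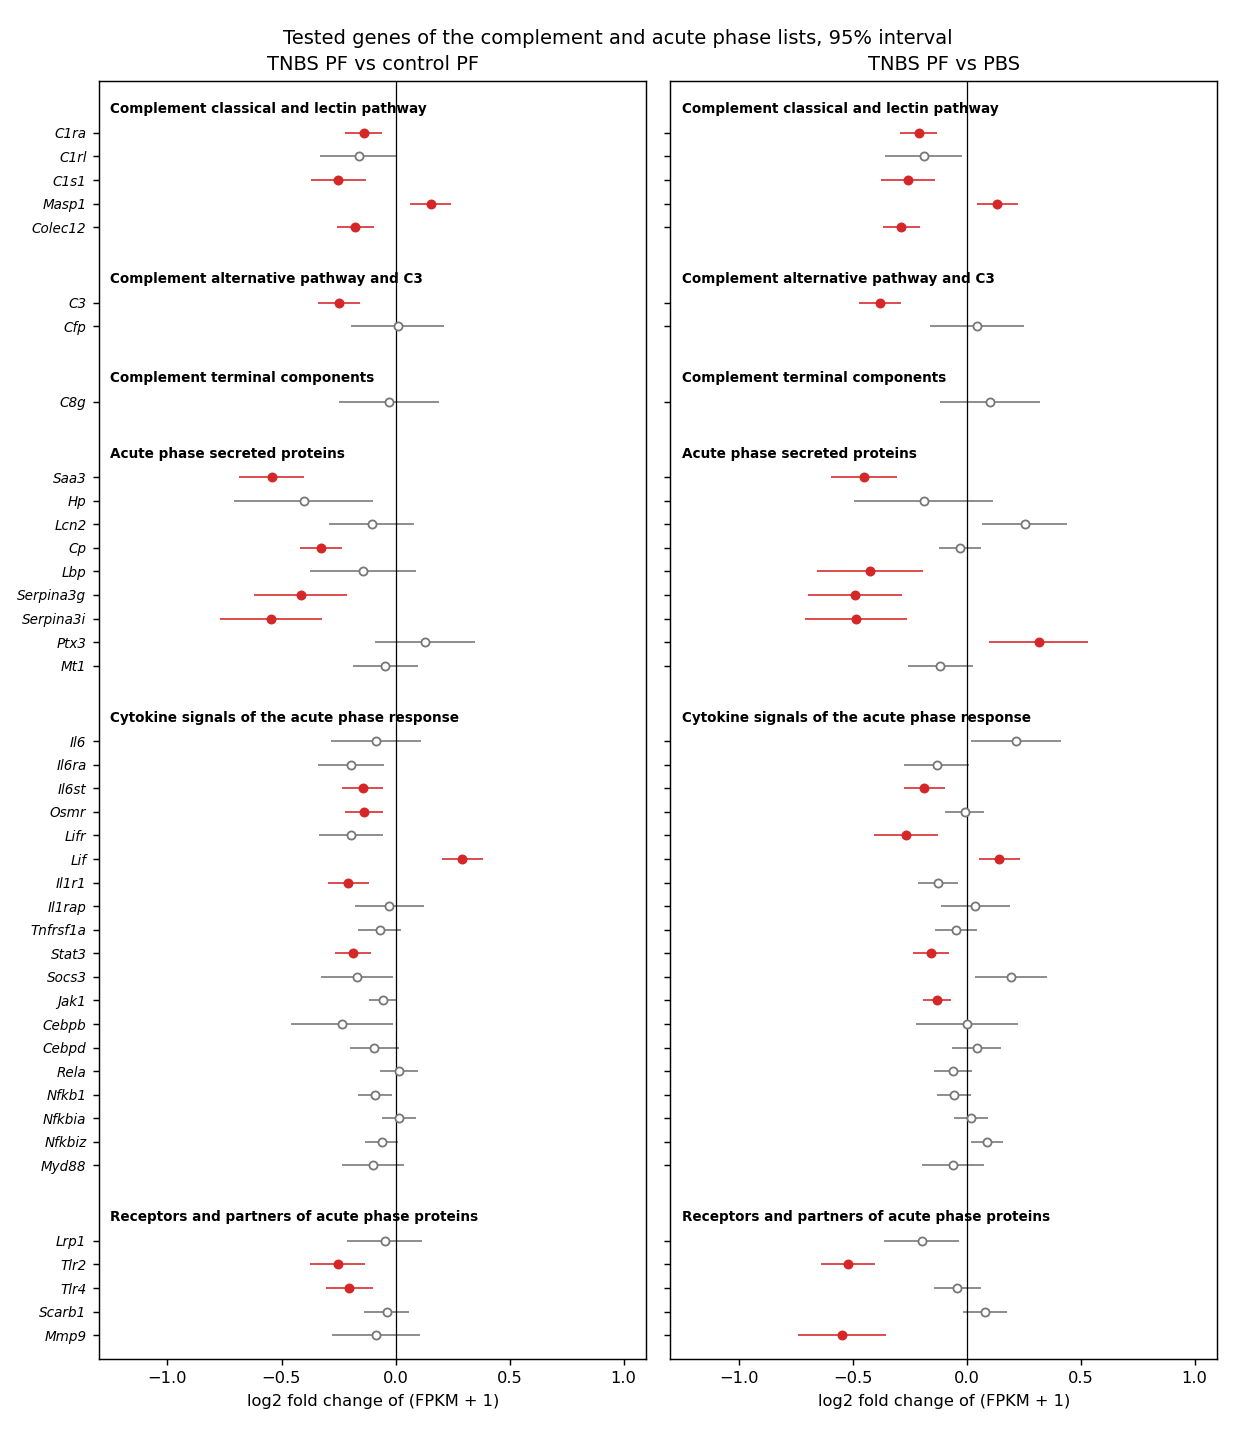
Log2 difference of FPKM + 1 with its 95% interval (horizontal axes) for the tested genes of 6 lists of complement and acute phase genes (vertical axis), for TNBS PF set against each of the other groups; filled red points passed an adjusted p of 0.05. Most passing points lie left of 0, and Masp1 and Lif pass to the right in both panels. Of all tested genes 5.45% passed lower and 5.15% higher against control PF, and 8.88% lower and 7.8% higher against PBS.

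The 4 called members were compared with other tested genes by the root mean square difference of log2 values over the 9 libraries. Each gene was centred on its own mean. Members, and genes with a predicted or clone symbol (Gm number or Rik), were left out as neighbours. Closest to Saa3 were Gas1 (0.0834), Steap4 (0.0841) and Igsf10 (0.102), beside a spread of 0.254 of Saa3 about its own mean. Steap4 had 52.6 FPKM with TNBS PF, 81.2 with control PF and 78.1 with PBS. Closest to C3 were Vgll4 (0.0344), N4bp2l1 (0.0408) and Sesn3 (0.041), with a spread of 0.166 of C3. C1ra was closest to Serinc3 (0.0246), Aktip (0.0304) and Chpt1 (0.0319), and C1s1 to Sspn (0.0396), Agtrap (0.0506) and C1qtnf6 (0.0521). How close the members lie to each other was therefore not examined. Tested genes of the complement and acute phase lists that are no member could be neighbours, and none was among the nearest 3. All 8 members carry the annotation extracellular region in the table, as do 5.17% of tested genes. Of the 8, 5 carry classical complement activation, among them C4b, which was not tested. That term is carried by 7 of 10537 tested genes.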

How the data were processed

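The members and gene lists were chosen with earlier results of these data known. Per the submitters' processing notes, cutadapt 1.15 and the mm10 build were used. Aligner, counter and strand stay not given in the sources used here. A single deposited table holds the authors' FPKM per library, per the file headers, and the authors' log2 fold change and p-value for each pair of groups. FPKM times GENCODE M21 exon length fell on whole fragments, within 0.01, for 97.2 to 97.3% of values under 1000 fragments, which gave the depth and the fragments.

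The tested genes (10537) reached 1 FPKM in 3 or more libraries. They were compared on log2(FPKM + 1) with limma 3.58.1 in R 4.3.3, with a mean-variance trend. All 9 libraries entered 1 fit, with Benjamini-Hochberg adjustment over all tested genes at 0.05. The procedure was tested on simulated data. Named genes were all members, called genes of the pathway lists, markers, paralogs and the 3 nearest profiles per called member. Il6, Cfp, Cebpb, Cebpd, Lrp2 and Cd163 were added after their values were seen. The list of complement regulators, apart from Serping1, is not reported here. Alternatives were another pseudocount, other filters and scalings, only the 2 groups compared, no trend, a replicate block, leaving out each library, and limma voom on recovered fragments.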

Additional observations from a re-analysis of the deposited data

How the results depend on the processing

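Of 393 values of the members under alternatives, 366 kept their direction and their side of the threshold, 11 lost a call, 13 gained one and 3 changed sign. The sign changes were differences of control PF from PBS that were not called, with C1s1 at −0.054 to 0.054 and Serping1 at −0.20 to 0.027 over the left-out libraries. For TNBS PF against control PF, the members called were 2 with no filter on low values, and 2 to 4 over left-out libraries, beside 4. For control PF against PBS they were 1 with the stricter filter, 1 with the replicate block, 2 in limma voom and 0 to 1 over left-out libraries, beside 0. For TNBS PF against PBS they were 4 to 5 over left-out libraries, beside 4. Over left-out libraries all genes called ranged from 661 to 1255, from 115 to 311 and from 1148 to 1735 in TNBS PF against control PF, control PF against PBS and TNBS PF against PBS. Control PF against PBS also gave 103 genes with no filter, 117 with no trend and 374 in voom, beside 227. No scaling moved the median of all genes by over 0.1 on the log2 scale. Replicate numbers were treated as shared numbers only, since the labels give no pairing. Between groups, deviations of same-numbered libraries correlated at −0.0978 to 0.0746, and those of differently numbered libraries at −0.075 to 0.0776. With the replicate block 906, 169 and 1537 genes were called in the 3 comparisons in that order. C1ra against control PF then had limma adjusted p = 0.0523, and Lcn2 against PBS 0.0344 in control PF and 0.0403 in TNBS PF. The cause of these changes was not tested. Depth limits C4b and Hp.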
